A study of Mus musculus with 10 samples.

Results

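The genes described here encode 9 core subunits of TFIID, namely Taf1, Taf2, Taf3, Taf5, Taf6, Taf8, Taf10, Taf11 and Taf13. They were chosen by name, each had 1 row among the 55536 genes of the count table, and each was also listed in the TPM (length-scaled transcript abundance, with a fixed sum per library) table. All 9 were among the 20317 genes whose counts were high enough to be tested. RNA was sequenced from female mouse germ cells at E14.5 (embryonic days) in 10 libraries, of which 4 were Taf4b-deficient, 4 were Taf4b-heterozygous and 2 were wildtype for Taf4b. The strain is given as C57BL/6, and the parents were Taf4b-heterozygous and homozygous for an Oct4-EGFP transgene, so cells of every genotype carried this germ cell reporter and were sorted by its green fluorescence. By the labels only the deficient genotype is infertile, and "fertile" below means the equally weighted mean of the heterozygous and wildtype groups. Neither the removed part of Taf4b nor whether libraries represent different animals is stated, so the p-values reflect library-to-library spread that can be technical.

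TFIID is the general transcription factor that recognises core promoters and seeds the assembly of the RNA polymerase II machinery. It consists of the TATA-binding protein TBP and a set of TBP-associated factors (TAFs), many of which join in pairs through a histone fold. Taf4b encodes a gonad-enriched paralogue of the subunit Taf4, and both pair with Taf12. The question put to the data was whether RNA of the other subunits stood higher where Taf4b was lost. Protein was not measured.

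Library totals ran from 28949924 to 44166320 reads, and no replicate pair matched within sampling noise. Germ cell markers (6 genes) summed to between 4114 and 4902 CPM (reads scaled to a common library size by TMM) in every library. The 7 supporting cell markers summed to between 10.0 and 25.2 CPM and the 6 stromal markers to between 2.33 and 8.12 CPM, with overlapping ranges across genotypes. No marker of these lists was at 0 in all 10 libraries. The 3 endothelial markers summed to between 65.2 and 381 CPM, of which Pecam1 made up most (mean 185 CPM) and Cdh5 almost nothing (mean 0.0969 CPM). Blood markers (8 genes) summed to 11.0 to 16.2 CPM in the deficient group, 3.02 to 9.57 CPM in the heterozygous group and 10.0 to 16.2 CPM in the wildtype group, so deficient and heterozygous libraries did not overlap. Their part in the results was not tested. Deficient replicates 2 and 4 and heterozygous replicate 3 had between 87.4 and 454 CPM of Gm23935, against 4146 to 5068 CPM in the other 7 libraries. The labels name 3 litter dates, January 29, March 1 and March 7, and libraries of all 3 genotypes share only the first.

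The targeted gene separated deficient from fertile libraries. Its CPM was 56.1, 62.1, 64.9 and 60.1 with Taf4b deficient, 144, 223, 195 and 234 with Taf4b heterozygous, and 152 and 207 with Taf4b wildtype. The log2 fold change against the fertile groups was -1.64 (SE 0.16, edgeR adjusted p = 0.0117). Against heterozygous libraries it was -1.71 (SE 0.17, edgeR adjusted p = 0.0118). Against wildtype libraries it was -1.56 (SE 0.19, edgeR adjusted p = 0.113), so Taf4b itself was not called there. In the limma fit of log2 TPM, Taf4b passed 0.05 against heterozygous (adjusted p = 0.0418) but not against fertile libraries (adjusted p = 0.246). In bulk RNA, fewer cells of a kind and less RNA per cell cannot be told apart, here and in the values that follow.

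The 2 subunit genes with the most similar profiles over the 10 libraries were Taf5 and Taf10, and Taf1 ran opposite to both by rank, as described further on. The bases before their starts are shown for that reason (RefSeq, GRCm38.p6, 250 bases ending just before the annotated start, 5′ to 3′ on the gene's strand). Capitals mark matches, on either strand, to the CCAAT box, to the GC box (GGGCGG), to the TATA box (TATAAA) or to the core of ETS-type sites (CGGAAG). The windows lie at chr19:47067498-47067747 on the plus strand for Taf5, chr7:105744339-105744588 on the minus strand for Taf10 and chrX:101532485-101532734 on the plus strand for Taf1.
Taf5: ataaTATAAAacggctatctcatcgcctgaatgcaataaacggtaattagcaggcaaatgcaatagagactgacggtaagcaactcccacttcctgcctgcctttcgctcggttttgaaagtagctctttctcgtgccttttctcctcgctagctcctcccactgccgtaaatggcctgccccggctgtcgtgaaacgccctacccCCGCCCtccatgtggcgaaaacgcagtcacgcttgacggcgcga
Taf10: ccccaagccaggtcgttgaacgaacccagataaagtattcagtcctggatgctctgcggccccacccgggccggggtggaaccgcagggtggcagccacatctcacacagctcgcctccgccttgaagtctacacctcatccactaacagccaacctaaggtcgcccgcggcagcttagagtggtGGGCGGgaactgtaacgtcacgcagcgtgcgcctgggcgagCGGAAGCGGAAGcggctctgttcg
Taf1: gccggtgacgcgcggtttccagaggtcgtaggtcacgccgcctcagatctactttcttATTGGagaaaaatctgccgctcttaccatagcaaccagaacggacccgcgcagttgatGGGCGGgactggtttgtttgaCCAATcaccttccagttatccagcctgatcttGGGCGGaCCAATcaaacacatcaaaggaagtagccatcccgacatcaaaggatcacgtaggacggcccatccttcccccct
The Taf5 window held 1 GC box and 1 TATA box, and the TATA box lay at the end far from the start. The Taf10 window held 1 GC box and 2 ETS cores that adjoin each other. The Taf1 window held 3 CCAAT boxes and 2 GC boxes, none of them overlapping. All 3 windows thus held a GC box, as did 32.7% of 32851 windows of the same length before RefSeq starts, while 33.8% held a CCAAT box, 12.4% a TATA box and 13.6% an ETS core. Among the 10 windows found for 8 of the 9 genes, 7 held a GC box, 3 a CCAAT box, 4 a TATA box and 4 an ETS core. Taf2 had no window in the table. A match describes the letters and is not a binding site.

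Levels of the 9 genes spanned 22.1-fold on the length-scaled TPM scale. Taf6, a histone-fold subunit that pairs with Taf9, had the highest level at 347 ± 85.2 TPM (SD over all 10 libraries) and exceeded Taf5 in 10 of 10. Taf5, whose WD40 protein builds the core scaffold of TFIID, followed at 116 ± 35.5 TPM, and Taf11 at 100.2 ± 25.4 TPM. Taf5 exceeded Taf11 in only 6 of 10 libraries, so these neighbours were not separated. Next came Taf10 at 64.0 ± 19.1 TPM, Taf8 at 55.4 ± 9.59 TPM, Taf2 at 54.4 ± 7.14 TPM and Taf1 at 50.7 ± 7.59 TPM. Taf10 stood above Taf8 in 7 libraries, Taf8 above Taf2 in 7 and Taf2 above Taf1 in 5 of 10, within the spread of each. Taf3 at 22.4 ± 2.86 TPM and Taf13 at 15.7 ± 3.93 TPM lay lowest, each below the gene before it in 10 of 10. The order depended on how length was taken into account. As CPM per kilobase of merged exons (GENCODE M21), Taf5 led with 61.2, ahead of Taf6 with 54.6, and Taf11 stood at 12.1, behind Taf10 with 27.1, Taf1 with 23.9, Taf2 with 19.0 and Taf8 with 13.5. Taf3 with 7.86 and Taf13 with 5.83 were lowest on this scale too.

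**Figure D1:**
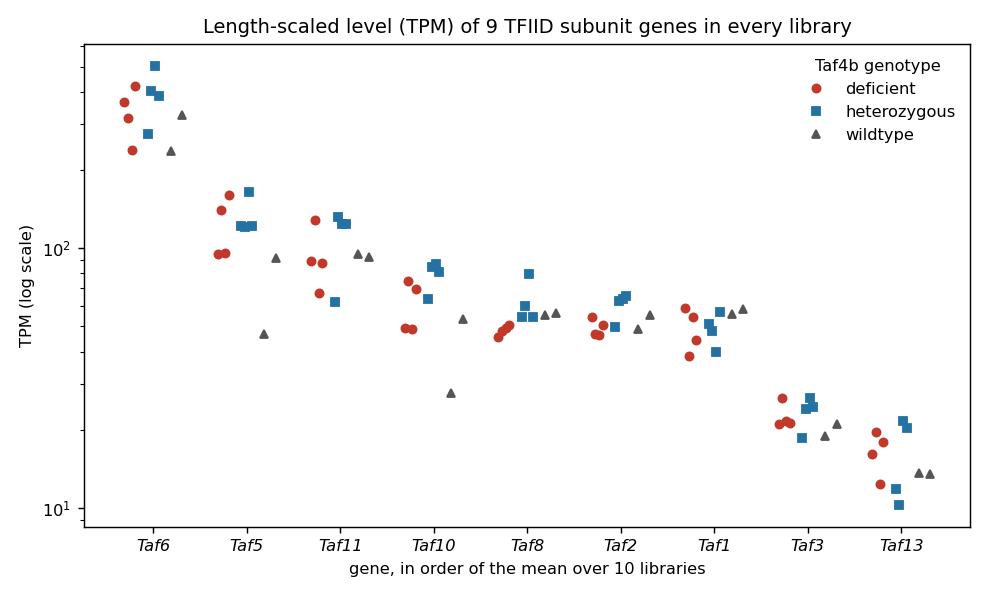
Level of each of the 9 genes in every library in TPM on a log axis, by Taf4b genotype, with genes ordered by their mean over the 10 libraries. Taf6 stands above the other genes, at 238 to 504 TPM, and Taf3 and Taf13 lie lowest.

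No subunit gene was called at an edgeR adjusted p under 0.05 in any comparison. The count was 0 of 9 in deficient against heterozygous libraries, where 0.0148% of all tested genes were called, and 0 of 9 in deficient against fertile libraries, where 0.00492% were. It was also 0 of 9 in deficient against wildtype libraries, where 0% of genes were called, and in heterozygous against wildtype libraries, where 0.00492% were. With backgrounds this low, a count of 0 says little about the subunits. At an unadjusted p under 0.05, 0 of 9 passed against heterozygous (11.9% of all genes did) and 0 of 9 against fertile libraries (4.31%). Taf5 and Taf10 passed in deficient against wildtype (3.66%) and again in heterozygous against wildtype libraries (8.3%), a pair of comparisons that share the 2 wildtype libraries.

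Fitted log2 fold changes of the 9 genes ran from -0.16 to 0.41 in deficient against fertile, -0.22 to 0.11 in deficient against heterozygous, -0.24 to 0.84 in deficient against wildtype and -0.27 to 0.96 in heterozygous against wildtype libraries. The highest value was that of Taf5 against wildtype and fertile in deficient libraries and that of Taf10 in heterozygous against wildtype libraries. In deficient against fertile libraries, 5 of the 9 genes had a fitted log2 fold change above 0 and 4 below, with a median of 0.13 beside -0.01 over all genes. Against heterozygous libraries, 4 were above 0 and 5 below, with a median of -0.03 beside -0.05, and against wildtype libraries 5 were above and 4 below, with a median of 0.15 beside 0.005. In both the comparison with fertile and that with heterozygous libraries, the 95% interval of each of the 9 genes lay within 2-fold in either direction. A level 1.5-fold higher in deficient libraries lay outside the interval of 9 of 9 genes against heterozygous, 7 of 9 against fertile and 5 of 9 against wildtype libraries. The exceptions against fertile libraries were Taf5, with an interval reaching 1.78-fold, and Taf10, with 1.61-fold. Heterozygous against wildtype libraries gave 7 genes above 0 and 2 below, with a median of 0.10 beside 0.02 over all genes. The median of 0.13 in deficient against fertile libraries depended on scale and libraries. In the limma fit of log2 TPM (pseudocount 0.1) it was 0.009 beside -0.05 over all genes. By counts it was 0.06 without the 3 libraries low in Gm23935. With 1 library left out it ran from 0.03 (deficient replicate 2) to 0.17 (heterozygous replicate 3). The authors' deposited table, whose contrast is not named in it, lists all 9 genes with adjusted p-values between 0.808 and 0.925, 5 with positive and 4 with negative log2 fold changes. It lists Taf4b at -1.66 (DESeq2 adjusted p = 1.25e-13), so negative values there mean lower with Taf4b deficient. All 9 signs match the fit of deficient against fertile libraries, and sizes were near, as for Taf5 (0.39 beside 0.41) and Taf2 (-0.13 beside -0.13).

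**Figure D2:**
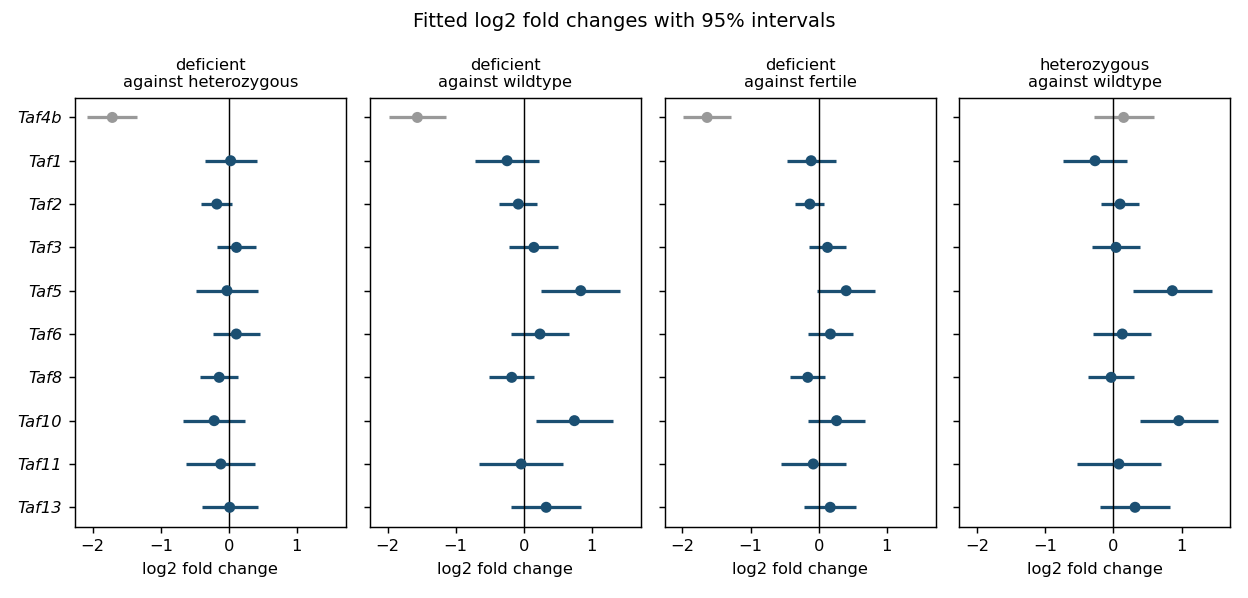
Fitted log2 fold changes (points) with 95% intervals (lines) of Taf4b in grey and the 9 subunit genes in blue, 1 panel per comparison. Taf4b lies between -1.71 and -1.56 in the panels with deficient libraries, and Taf5 and Taf10 are the subunit genes whose intervals lie above 0, in the panels against wildtype.

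Taf1 (ENSMUSG00000031314; X chromosome, 101532734 to 101601789, plus strand of GRCm38) encodes the largest subunit, which contacts promoter DNA and carries bromodomains that bind acetylated histones. It measured 236, 156, 232 and 169.6 CPM in the deficient libraries, while the heterozygous ones had 219, 189, 147 and 223 and the wildtype ones 239 and 231. Deficient libraries spread widely and overlapped both other groups, while every heterozygous library lay below the wildtype libraries. The log2 fold change against fertile libraries was -0.11 (SE 0.16, 95% interval -0.47 to 0.25). The lowest 3 of the 10 values belonged to the libraries low in Gm23935, at 147 to 169.6 CPM, against 189 to 239 CPM in the other 7. With those 3 libraries left out, the Taf1 log2 fold change was 0.08 against fertile libraries (unadjusted p = 0.523), and in deficient against wildtype libraries it was -0.001 (unadjusted p = 0.993), against -0.24 over all 10 libraries.

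Taf2 (ENSMUSG00000037343; chromosome 15, 55015131 to 55072152, minus strand) encodes an aminopeptidase-like subunit that binds DNA around the transcription start. It averaged 123 ± 8.25 CPM in the deficient group, against 139 ± 8.89 in the heterozygous group (SD, n = 4 per group) and 129.6 ± 0.290 in the wildtype group (SD, n = 2). The range was 114 to 133 CPM in deficient libraries, so they overlapped the heterozygous range of 126 to 146 CPM at 1 library on each side. Its fitted log2 fold change against heterozygous libraries was -0.18 (SE 0.10, interval -0.41 to 0.05), and it was the gene that lay lower in deficient libraries within each of the 3 litter dates. Taf3 (ENSMUSG00000025782; chromosome 2, 9914552 to 10048596, minus strand) encodes a subunit whose PHD finger binds trimethylated lysine 4 of histone H3 at active promoters. It ran from 47.5 to 63.2 CPM with Taf4b deficient, 43.1 to 51.9 CPM with Taf4b heterozygous and 46.9 to 48.4 CPM with Taf4b wildtype, all overlapping. Its log2 fold change against fertile libraries was 0.13 (SE 0.12, interval -0.14 to 0.40).

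Taf5 (ENSMUSG00000025049; chromosome 19, 47067746 to 47083479, plus strand) measured 169, 249.6, 179 and 270.1 CPM in the deficient libraries, while the heterozygous ones had 221, 201, 263 and 199 and the wildtype ones 87.9 and 155. The 2 wildtype libraries were the lowest of all 10, and deficient and heterozygous libraries shared 1 range. The log2 fold change was 0.84 in deficient against wildtype (SE 0.26, unadjusted p = 0.00878, edgeR adjusted p = 0.9999) and 0.87 in heterozygous against wildtype libraries (SE 0.26, unadjusted p = 0.00736, edgeR adjusted p = 0.290). Against heterozygous libraries it was -0.03 (SE 0.21, interval -0.48 to 0.43), an interval that includes 0. Against the fertile groups it was 0.41 (SE 0.19, interval -0.02 to 0.83, edgeR adjusted p = 0.904).

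Taf10 (ENSMUSG00000043866; chromosome 7, 105739393 to 105744361, minus strand) encodes a histone-fold subunit that TFIID shares with the coactivator SAGA. It measured 102, 160.4, 107 and 135 CPM in the deficient libraries, while the heterozygous ones had 136, 152, 157 and 142 and the wildtype ones 51.6 and 99.1. As for Taf5, the wildtype libraries were the lowest of all 10. The log2 fold change was 0.74 in deficient against wildtype (SE 0.26, unadjusted p = 0.0152, edgeR adjusted p = 0.9999) and 0.96 in heterozygous against wildtype libraries (SE 0.26, unadjusted p = 0.00372, edgeR adjusted p = 0.247). DESeq2 put heterozygous against wildtype past the threshold at a log2 fold change of 0.94 (adjusted p = 0.0381), and over all alternatives to the edgeR fit this adjusted p ran from 0.0381 to 1.00. In that comparison DESeq2 called 488 of the 16370 genes to which it gave an adjusted p, beside 1 of 20317 by edgeR. In deficient against heterozygous libraries the fitted Taf10 value by edgeR was -0.22 (SE 0.21) and against fertile libraries 0.26 (SE 0.19).

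A single library carried much of the contrast with wildtype. Without wildtype replicate 1, the log2 fold change in deficient against wildtype libraries was 0.49 for Taf5 and 0.35 for Taf10, and no subunit gene had an unadjusted p under 0.05. Without wildtype replicate 2 the values were 1.298 and 1.286. In heterozygous against wildtype libraries, leaving out wildtype replicate 1 gave 0.51 for Taf5 and 0.56 for Taf10, and leaving out replicate 2 gave 1.28 and 1.46. The contrast also differed by litter date. Deficient minus wildtype, as a difference of mean log2 CPM, was 1.23 for Taf5 and 1.31 for Taf10 on January 29 (2 libraries against 1), and 0.21 and 0.11 on March 1 (1 against 1). Heterozygous minus wildtype was 1.18 for Taf5 and 1.46 for Taf10 on January 29, the date that held libraries of both. Each of these 2 dates held 1 wildtype library, so date and library cannot be told apart for this group. March 7 held none, so its deficient and heterozygous libraries had no wildtype library of the same date. With litter date as a term in the edgeR model, deficient against wildtype gave 0.82 for Taf5 (SE 0.29, unadjusted p = 0.0184) and 0.82 for Taf10 (SE 0.31, unadjusted p = 0.0263). Heterozygous against wildtype gave 0.73 for Taf5 (SE 0.34, unadjusted p = 0.0601) and 1.02 for Taf10 (SE 0.37, unadjusted p = 0.0220).

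Reads of Taf10 were uncertain for a further reason. Of its merged exon length, 45.9% overlaps exons of Ilk on the opposite strand, and the strand setting of the counting was not given in the sources used here. Ilk was listed at 0.308 to 1.19 CPM in the counts but at 98.0 to 182 TPM, so the deposited tables treat this locus differently. Whether reads of the shared stretch were given to Taf10 or left uncounted was not tested. In TPM, Taf10 measured 49.3, 74.8, 48.8 and 69.9 in the deficient libraries, while the heterozygous ones had 63.9, 84.5, 87.1 and 80.8 and the wildtype ones 27.6 and 53.2. Heterozygous libraries lay above wildtype libraries on this scale too, and 1 wildtype library lay within the deficient range. Taf6 overlaps Ap4m1 on the opposite strand over 26.5% of its exon length, and for Taf3, Taf5 and Taf11 each such overlap covered less than 10% of exon length (9.95% at most, for Taf11).

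Groups that did not overlap in CPM were found for 3 of 9 genes in deficient against wildtype libraries (Taf5, Taf10 and Taf13, each higher), where 12.6% of all genes did not overlap. They were found for 3 of 9 in heterozygous against wildtype libraries (Taf5 and Taf10 higher, Taf1 lower), where 15.8% did not. For deficient against heterozygous libraries it was 0 of 9 (5.97% of all genes), and for deficient against fertile libraries 0 of 9 (1.39%).

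**Figure D3:**
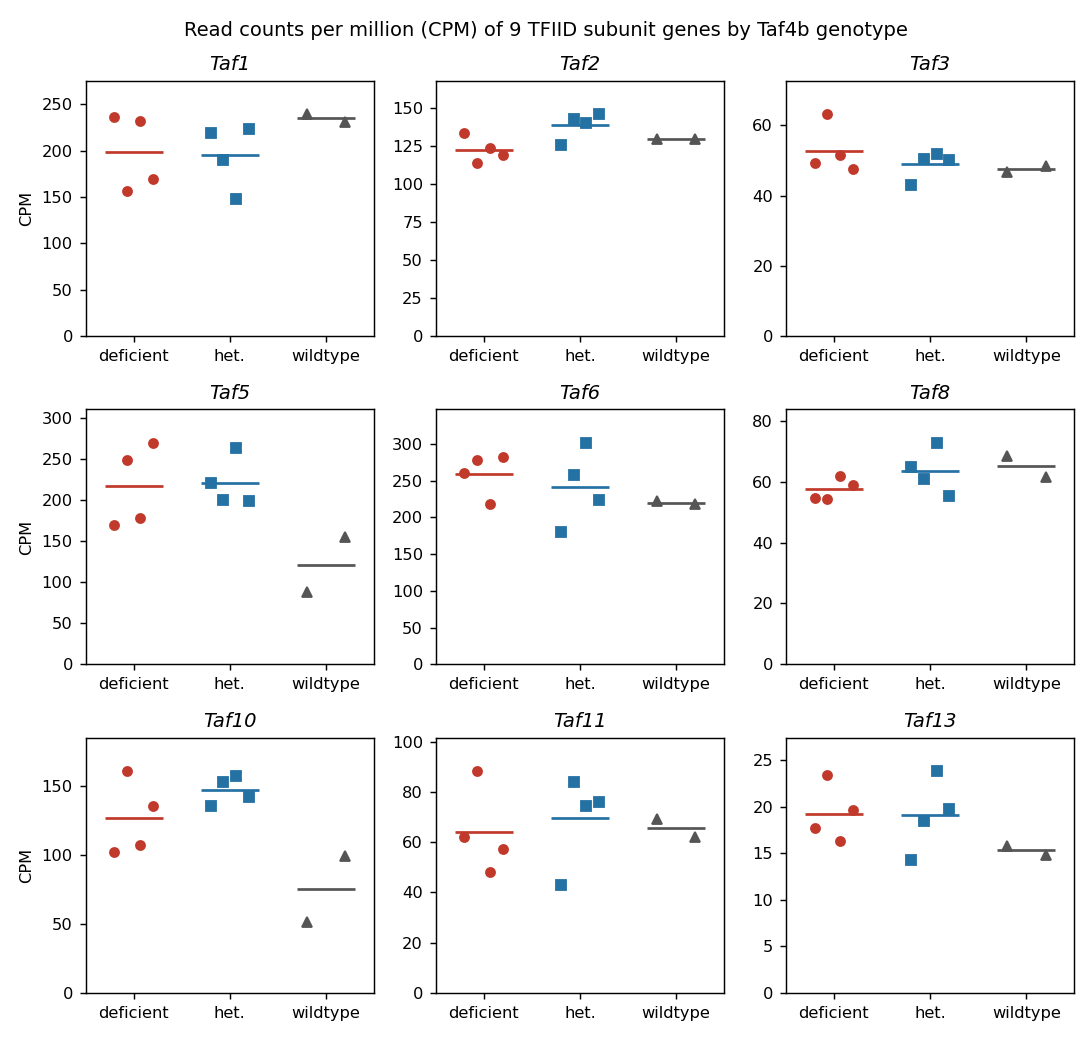
CPM of each gene in each library (points) with the group mean (line), for deficient, heterozygous (het.) and wildtype libraries from left to right, each axis starting at 0. Wildtype libraries lie lowest for Taf5 and Taf10, and deficient libraries overlap the heterozygous ones for all 9 genes.

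Taf6 (ENSMUSG00000036980; chromosome 5, 138178617 to 138187451, minus strand) measured 261, 278, 218 and 282 CPM in the deficient libraries, while the heterozygous ones had 179.7, 257, 302 and 224 and the wildtype ones 222 and 219. All groups overlapped, and the log2 fold change against fertile libraries was 0.17 (SE 0.15, interval -0.15 to 0.50). As for Taf5, the 3 highest values belonged to the libraries low in Gm23935, with 278 to 302 CPM against 179.7 to 261 CPM in the other 7 for Taf6, and 249.6 to 270.1 CPM against 87.9 to 221 CPM for Taf5. With those 3 libraries left out, the Taf5 log2 fold change in deficient against wildtype libraries was 0.53 (unadjusted p = 0.0685) and that of Taf10 was 0.48 (unadjusted p = 0.124). In heterozygous against wildtype libraries, the same omission gave 0.77 for Taf5 (unadjusted p = 0.0109) and 0.93 for Taf10 (unadjusted p = 0.00811).

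Taf8 (ENSMUSG00000023980; chromosome 17, 47483364 to 47502292, minus strand) encodes the histone-fold partner of Taf10, which links it to Taf2. It measured 54.6, 54.4, 62.0 and 58.9 CPM in the deficient libraries, while the heterozygous ones had 64.8, 60.9, 72.7 and 55.3 and the wildtype ones 68.3 and 61.6, with a log2 fold change of -0.16 against fertile libraries (SE 0.12, interval -0.42 to 0.10). Deficient and fertile libraries overlapped in CPM but not in TPM. Its TPM came to 45.7, 47.9, 49.4 and 50.8 in the deficient libraries, while the heterozygous ones had 54.1, 60.0, 79.8 and 54.3 and the wildtype ones 55.3 and 56.4, so every deficient library lay below every fertile one. It was the only gene of the 9 to do so, where TPM ranges of deficient and fertile libraries did not overlap for 1.46% of all tested genes. The limma fit of log2 TPM with a pseudocount of 0.1 gave -0.27 against fertile libraries (SE 0.15, interval -0.62 to 0.07, adjusted p = 0.912), which did not pass. Taf8 was also the only subunit gene not overlapping in TPM against heterozygous libraries (6.57% of all genes). In deficient against wildtype libraries 3 of 9 did not overlap in TPM, Taf3 and Taf5 higher and Taf8 lower (12.1%), and in heterozygous against wildtype libraries 2 of 9, Taf5 and Taf10 (16.5%).

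On the TPM scale 8 of the 9 genes had a fold change below 0 in deficient against heterozygous libraries, with a median of -0.22, against 5 of 9 and -0.03 by counts. The median over all genes in that TPM fit was -0.11, which was below 0 too. The ratio of TPM to CPM varied between libraries by up to 1.85-fold for Taf13 and 1.61-fold for Taf6, and by 1.17 to 1.38-fold for the other 7 genes.

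Taf11 (ENSMUSG00000024218; chromosome 17, 27901122 to 27909844, minus strand) and Taf13 (ENSMUSG00000048100; chromosome 3, 108571698 to 108583222, plus strand) encode a histone-fold pair that contacts TBP. Taf11 measured 62.2, 88.3, 48.0 and 57.5 CPM in the deficient libraries, while the heterozygous ones had 43.1, 84.2, 74.5 and 76.1 and the wildtype ones 69.3 and 62.2. It had the widest spread within the deficient group, with a coefficient of variation of 27.0%, and all groups overlapped. Taf13 measured 17.7, 23.4, 16.3 and 19.6 CPM in the deficient libraries, while the heterozygous ones had 14.3, 18.5, 23.8 and 19.8 and the wildtype ones 15.8 and 14.8. In CPM each deficient library lay above both wildtype libraries, at a log2 fold change of 0.33 (SE 0.23, interval -0.18 to 0.84), while the heterozygous range enclosed the deficient one. In TPM, Taf13 in deficient replicate 3, at 12.4, lay below both wildtype libraries, at 13.7 and 13.5. The log2 fold changes against fertile libraries were -0.08 for Taf11 (SE 0.22) and 0.17 for Taf13 (SE 0.17).

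Within litter dates, 2 subunit genes were higher in deficient libraries throughout by CPM. As differences of mean log2 CPM on January 29, March 1 and March 7, Taf5 gave 0.64, 0.21 and 0.25 and Taf13 gave 0.20, 0.14 and 0.09. Taf2, at -0.16, -0.07 and -0.19, was lower on 3 of 3 dates. In TPM, Taf13 went the other way on March 1, at 12.4 in the deficient and 13.5 in the wildtype library. The fertile side differed by date. It held 1 heterozygous and 1 wildtype library on January 29, 1 wildtype library on March 1 and 3 heterozygous libraries on March 7. On January 29 Taf5 in deficient libraries stood 1.23 above the wildtype library and 0.05 above the heterozygous one. With 1 or 2 deficient libraries per date, these differences were not tested. How often other genes kept 1 direction on all dates was not counted. Taf10 gave 0.58, 0.11 and -0.13, and the other 5 genes were higher on 1 or 2 of the 3 dates. With litter date as a term in the model, 0 of 9 genes were called in any comparison. No gene of the 20317 tested was called in that fit, Taf4b included, so this count says nothing about the subunits.

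The libraries differed in meiotic progress within genotypes, and Taf11 followed it. A stage score was taken as the mean log2 CPM of 27 genes of meiotic recombination and synapsis minus that of 18 pluripotency genes. With Taf4b deficient the score was -0.03, 1.02, -1.94 and -0.41, with Taf4b heterozygous -1.94, 1.78, 1.54 and 1.42, and with Taf4b wildtype -0.21 and 0.14. The lowest scores thus occurred in 1 deficient and 1 heterozygous library. Over the 10 libraries Taf11 log2 CPM gave Pearson r = 0.93 with the score (permutation p = 0.00025, adjusted over 9 relations 0.00225) and Spearman rho = 0.88 (permutation p = 0.00166, adjusted 0.0149). Without deficient replicate 3 and heterozygous replicate 1, which lay farthest from the median score, r was 0.82, and within the 7 libraries high in Gm23935 it was 0.96. None of the other 8 genes passed after adjustment, with adjusted p between 0.134 and 0.738 by Pearson's r (permutation). How many of all tested genes follow the score as closely was not counted, so the relation is not shown to be particular to Taf11. Taf13 came next at r = 0.69 and rho = 0.65, followed by Taf6 at r = 0.63 and rho = 0.54 and Taf2 at r = 0.53 and rho = 0.65. With the score as a term in the model, 0 of 9 genes were called in any comparison, where between 1 and 7 of all 20317 genes were. At an unadjusted edgeR p under 0.05, 3 of 9 passed in deficient against fertile libraries (1457 of all 20317 genes). Against wildtype 3 of 9 passed (1389 of all genes) and against heterozygous libraries 1 of 9 (2429). The comparison of heterozygous against wildtype libraries, without deficient ones, gave 2 of 9 (2326 of all genes). In this fit 6 genes were above 0 and 3 below against fertile libraries, with a median of 0.18 beside -0.005 over all genes.

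**Figure D4:**
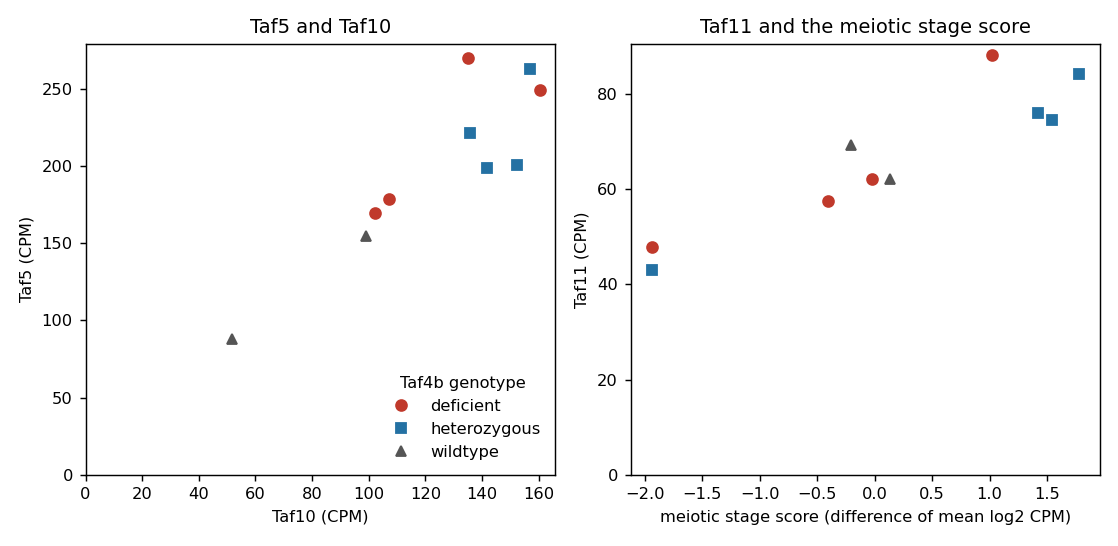
Left, Taf5 against Taf10 in CPM, and right, Taf11 in CPM against the meiotic stage score, 1 point per library and genotype by symbol. Taf5 and Taf10 lie along 1 line with wildtype replicate 1 at its low end, and Taf11 is lowest in the 2 libraries with a score of -1.94.

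The 9 genes did not vary as a block across libraries. Of 36 pairs, 20 had a positive Pearson r of log2 CPM over the 10 libraries, with a median of 0.05 and a range from -0.84 to 0.94. Pairs of other genes were not examined in this way, so these values have no background. The highest was Taf5 with Taf10 at r = 0.94 (permutation p = 0.0006, adjusted over 36 pairs 0.0216) and rho = 0.77 (permutation p = 0.0124, adjusted 0.111). It was 0.90 without deficient replicate 4 and wildtype replicate 1, and 0.97 within the 7 libraries high in Gm23935. The ratio of Taf5 to Taf10 in CPM stayed between 1.32 and 2.00 in all 10 libraries. Taf6 with Taf13 gave r = 0.86 (permutation p = 0.00137, adjusted 0.0247) and rho = 0.85 (permutation p = 0.00281, adjusted 0.0337), with 0.74 after the 2 farthest libraries were left out and 0.70 within the 7. Taf1 ran opposite to Taf13 at r = -0.84 (permutation p = 0.00246, adjusted 0.0295) and rho = -0.67 (permutation p = 0.0390, adjusted 0.196). That relation was -0.56 after the 2 farthest libraries were left out and -0.35 within the 7. Taf1 with Taf5 gave r = -0.74 (permutation p = 0.0093, adjusted 0.0670) and rho = -0.92 (permutation p = 0.00049, adjusted 0.0176), with r at -0.69 after the 2 farthest libraries were left out and -0.54 within the 7. Taf1 with Taf10 gave r = -0.66 (permutation p = 0.0254, adjusted 0.130) and rho = -0.87 (permutation p = 0.00227, adjusted 0.0337), with r at -0.58 after the 2 farthest libraries were left out and -0.68 within the 7. The direct histone-fold partners Taf11 and Taf13 gave r = 0.69 (permutation p = 0.0290, adjusted 0.130) and rho = 0.65 (permutation p = 0.0494, adjusted 0.198), with r at 0.52 after the 2 farthest libraries were left out and 0.72 within the 7.

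The gene most like each subunit over the 10 libraries was sought among 10880 genes with a mean of at least 5 CPM, by Pearson r of log2 CPM. It was Ccny for Taf5 at 0.982, Coq2 for Taf10 at 0.985, Pigu for Taf11 at 0.981, Ier3ip1 for Taf13 at 0.980 and Mgat4a for Taf1 at 0.978. For Taf6 it was Gm13033 at 0.965, for Taf8 Eny2 at 0.945, for Taf2 Kif16b at 0.943 and for Taf3 Gtf2a2 at 0.911. Eny2 encodes a subunit of SAGA and Gtf2a2 a subunit of the general factor TFIIA. With so many genes compared over 10 libraries, these values describe likeness only.

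Among the remaining TFIID genes, Taf4, the broadly expressed paralogue of Taf4b, was low in every group. It measured 7.68, 6.61, 9.69 and 4.66 CPM in the deficient libraries, while the heterozygous ones had 7.95, 5.38, 7.40 and 5.51 and the wildtype ones 7.07 and 6.77, with a log2 fold change of 0.09 against fertile libraries (SE 0.23). On the TPM scale it averaged 2.86 ± 0.785 in the deficient group, against 2.84 ± 0.536 in the heterozygous group (SD, n = 4 per group) and 2.64 ± 0.279 in the wildtype group (SD, n = 2), below the mean of every subunit gene above. Together with Taf7, Taf9, Taf9b, Taf12, Tbp, Taf7l, Tbpl1 and Tbpl2 it forms a list of 9 genes, of which 8 were tested and 0 called in any comparison. Of the 8, 6 had a log2 fold change above 0 against fertile libraries, as did 48.4% of all tested genes. Their median was 0.08 beside -0.01 over all genes. The smallest unadjusted p belonged to Tbpl1, a TBP relative, at 0.22 (SE 0.13), followed by Tbp at 0.16 (SE 0.11). With Taf4b deficient, Tbpl1 averaged 57.0 ± 6.07 CPM, against 43.4 ± 5.03 CPM with Taf4b heterozygous (SD, n = 4 per group) and 55.3 ± 4.39 CPM with Taf4b wildtype (SD, n = 2). Tbpl2, the gene not tested, had 1 read in deficient replicate 2, 1 read in heterozygous replicate 4 and 0 in the other 8 libraries. Taf9 shares 73.8% of its exon length with Ak6 on the same strand and was listed at 0.0338 to 0.416 CPM but at 10.6 to 22.9 TPM, so its count is uncertain.

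The wider initiation machinery gave 0 calls as well, which says little where at most 0.0148% of all tested genes were called in a comparison. Of 17 other general transcription factor genes, 14 had a log2 fold change above 0 and 3 below in deficient against fertile libraries, with a median of 0.14. Ercc3, a helicase of TFIIH, stood at 0.30 (SE 0.14, unadjusted p = 0.0498) and Gtf2f2, a subunit of TFIIF, at 0.23 (SE 0.13). Of 12 RNA polymerase II subunit genes, 10 were above 0 and 2 below, with a median of 0.16, and Polr2j and Polr2f stood at 0.23 (SE 0.11) and 0.19 (SE 0.11). Of 18 SAGA genes outside TFIID, 9 were above and 9 below 0, with a median of 0.01, and Sf3b5 and Sf3b3, which also serve in the spliceosome, stood at 0.32 (SE 0.11, unadjusted p = 0.0139) and -0.23 (SE 0.11). Over all tested genes the median was -0.01, and 48.4% were above 0. Of the 12 polymerase genes, 10 were above and 2 below 0 in deficient against heterozygous libraries, and 9 above and 3 below in deficient against wildtype libraries. In heterozygous against wildtype libraries 1 was above and 11 below 0. Of all tested genes, 44.9%, 50.6% and 52.6% were above 0 in these comparisons, in the same order. These comparisons share libraries.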

How the data were processed

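Bulk RNA-seq of sorted germ cells was processed by the authors with Trim Galore 0.5.0, FastQC 0.11.5, HISAT2 2.1.0 on GRCm38 and SAMtools 1.9, per the submitters' processing notes. Reads per gene were counted by the authors with featureCounts (Subread 1.6.2) and TPM was estimated by them with StringTie 1.3.3b, according to those notes, which give neither strand setting nor annotation release. Their deposited DESeq2 table gives, per the file headers, a normalized mean count (signal) for each gene. Beside it, per the file headers, stand a log2 change and its error, the test's score and raw and adjusted p-values.

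From the counts, edgeR 4.0.16 (R 4.3.3) kept 20317 genes by filterByExpr, scaled them by TMM and fitted 1 quasi-likelihood model of 3 genotype groups over 10 libraries, with Benjamini-Hochberg adjustment over all genes tested. CPM divides by the reads of tested genes and the TMM factor, and log2 CPM adds a prior count of 2. SE comes from the F statistic, and 95% intervals use its t distribution and are not adjusted for the number of genes. Where no tool is named, an adjusted p is edgeR's. TPM was fitted with limma 3.58.1 as log2(TPM + 0.1), which understates changes of low genes. Correlations used 100000 permutations, two-sided. Genes were located by identifier in GENCODE M21 (55536 of 55536 found), and promoter windows matched by symbol (8 of 9 genes). The fit was also run on simulated counts of independent libraries without differences in litter date, stage or Gm23935. Such counts cannot show how the fit behaves where libraries differ in these. The members, lists and tests were chosen with earlier results of these data known; the naming rule takes the 9 members in full, the remaining TFIID genes, and in each further list the 2 genes with the smallest p in deficient against fertile libraries where none was called. Gm23935, Ilk, Ap4m1 and Ak6 were chosen after their values were seen. Alternatives covered DESeq2 1.42.0, scaling, filtering, litter date, stage score and replicate number as terms, TPM, and leaving libraries out.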

Additional observations from a re-analysis of the deposited data

Results flagged for a closer look

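In 5 of 40 groups of 4 libraries or more, 1 library lay so far from its nearest neighbour that Dixon's test at the 95% level marked it, where chance marks about 5% of groups. All 5 were marked on the TPM scale. Heterozygous replicate 1 was low for Taf2, at 49.97 TPM beside a nearest value of 62.66, and for Taf11, at 62.32 TPM beside 123.5, and it is 1 of the 2 libraries with the lowest stage score. Heterozygous replicate 3 was high for Taf5, at 165.1 TPM beside 121.4. Deficient replicate 2 was high for Taf3, at 26.56 TPM beside 21.63. Deficient replicate 1 was low for Taf4b, at 19.57 TPM beside 21.13.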

How the results depend on the processing

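The number of subunit genes called was 0 in all 4 comparisons under every alternative, with 1 exception: DESeq2 called 1, Taf10, in heterozygous against wildtype libraries. Counts over all genes moved more. For deficient against heterozygous libraries (3 genes called) they were 224 with DESeq2, 6 with DESeq2 size factors, 0 with litter date as a term, 7 with the stage score as a term, 14 without the filter on low counts, 13 and 45 in TPM with pseudocounts of 0.1 and 1, 369 in TPM without the filter, 97 without the 3 libraries low in Gm23935, and 0 to 519 with 1 library left out, 519 without heterozygous replicate 1. For deficient against wildtype libraries (0 called) they were 1 with DESeq2, 1 with the stage score, 1 without the filter, 8 in TPM without the filter and 0 to 1 with 1 library left out. For deficient against fertile libraries (1 called) they were 8 with DESeq2, 0 with litter date, 0 in each of the 3 TPM fits, 0 without the 3 libraries and 0 to 1 with 1 left out. For heterozygous against wildtype libraries (1 called) they were 488 with DESeq2, 0 with litter date, 3 with the stage score, 268 without the filter, 147 with only the libraries compared, 0 in TPM with either pseudocount, 66 in TPM without the filter, 186 without the 3 libraries and 0 with any 1 left out. The cause was not tested.

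With the replicate number as a block, 0 genes were called in deficient against heterozygous, against fertile and in heterozygous against wildtype libraries. Same-numbered libraries deviated with correlations between -0.42 and 0.38, so the numbers do not pair them. Fitted directions of subunit genes changed in 29 of 198 alternative values for deficient against heterozygous, 4 of 198 against wildtype, 3 of 189 against fertile and 13 of 198 for heterozygous against wildtype libraries; none of these was a called gene. The wildtype group holds 2 libraries, and leaving out either moved Taf5 and Taf10. When 1 of them is left out, the other is assumed to vary like the remaining groups.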
